A study of Homo sapiens with 3 samples.

Results

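The SOX and TBX transcription factors described here were 9 genes of the 29960 in the deposited table, chosen by symbol: SOX2, SOX4, SOX7, SOX9, SOX12, SOX13, SOX15, TBX2 and TBX3. Each matched 1 gene with an Ensembl identifier. The cells were 5637, an established human bladder cancer line, and the question was which factors differ between the parental line and a derivative resistant to gemcitabine, a nucleoside analogue that blocks DNA synthesis. RNA-Seq of untreated cells was used for 3 libraries with a sample label, 1 labelled as wild-type parental and 2 as Gemcitabine Resistant, and each came from a single-cell clone. The resistant line was made by repeated exposure to rising gemcitabine according to the study's methods (the labels call the treatment acute), and was then kept without the drug. The study made 3 clones per group, and the authors' deposited group means pool them, with no SD. A single clone stands for the parental line in the per-library values, so that differences between clones and the effect of resistance cannot be told apart from it alone.

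SOX proteins bind DNA through a high mobility group (HMG) box that bends the double helix, and they act with partner factors to set and keep cell identity. T-box proteins bind DNA through a larger T-box domain, and TBX2 and TBX3 are mainly repressors that are known for holding back cell cycle inhibitors and senescence. SOX2 is a pluripotency factor, SOX9 marks progenitors in many epithelia, and SOX15 is a close relative of the SOX2 group with a role in muscle and epithelial precursors. The study named TBX2 and SOX15 as key factors through their known targets among its differentially expressed genes. Its text lists TBX2, but not SOX15, among the upregulated genes. Both were named from these same samples, so their direction here is not independent evidence.

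The coding stretch most alike within each family is shown first, because the members are compared with each other throughout and because similar sequences can share reads. The 60 bases are from the coding sequence of each gene in GENCODE 29 on GRCh38, read 5′ to 3′ along the transcript, at the start of the HMG box of 6 SOX members. SOX7 is not shown. Capitals mark the 32 positions at which all 6 hold the same base.
SOX2, chr3:181712478-181712537, plus strand: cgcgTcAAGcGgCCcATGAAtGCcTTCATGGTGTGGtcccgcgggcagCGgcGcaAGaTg
SOX4, chr6:21594706-21594765, plus strand: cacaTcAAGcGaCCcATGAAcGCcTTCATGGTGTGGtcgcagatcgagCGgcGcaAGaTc
SOX9, chr17:72121701-72121760, plus strand: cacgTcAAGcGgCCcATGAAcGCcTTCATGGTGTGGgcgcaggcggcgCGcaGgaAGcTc
SOX12, chr20:326039-326098, plus strand: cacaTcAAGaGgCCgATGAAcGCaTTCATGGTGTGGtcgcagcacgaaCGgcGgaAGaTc
SOX13, chr1:204123696-204123755, plus strand: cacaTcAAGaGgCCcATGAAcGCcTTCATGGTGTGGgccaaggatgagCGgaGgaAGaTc
SOX15, chr17:7589476-7589535, minus strand: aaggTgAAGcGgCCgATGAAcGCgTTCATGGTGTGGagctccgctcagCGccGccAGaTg
The longest fully shared block encodes the start of the DNA-binding surface. SOX15 was 75% identical to SOX2 over this window, and SOX4, the closest, was 80% identical. For the TBX pair a window of the same length is shown, with capitals at the 51 positions that TBX2 and TBX3 share, 85% of the window.
TBX2, chr17:61400453-61400512, plus strand: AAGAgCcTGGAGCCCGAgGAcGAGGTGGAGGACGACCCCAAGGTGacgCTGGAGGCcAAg
TBX3, chr12:114682871-114682930, minus strand: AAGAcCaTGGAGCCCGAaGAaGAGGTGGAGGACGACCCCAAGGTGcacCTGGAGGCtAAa
Over whole transcripts, the longest run without a mismatch in any of the 36 pairs was 33 bases, between SOX4 and SOX12. TBX2 and TBX3 shared at most 24 bases in a row. The read length and the treatment of reads that match several genes are not given in the sources used here.

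The libraries held 14475531 (parental), 15836788 (resistant 1) and 17461941 (resistant 2) reads on genes. Counts were scaled to CPM, the read count per unit of library size after edgeR's TMM scaling, and 3 reads, taken as the floor, corresponded to 0.213, 0.184 and 0.173 CPM. Keratins and transcription factors of urothelium were read in all 3 libraries, among them KRT19 at 4311, 3593 and 4790 CPM and GATA3 at 96.3, 64.0 and 61.6 CPM. UPK3A, a uroplakin of mature umbrella cells, had 0 reads, and UPK2 had 3, 9 and 5. Of the 15 urothelial and epithelial markers, 13 entered the test and 2 were called, both lower in the resistant libraries. These were KRT5, a basal keratin, at 272, 9.79 and 13.8 CPM, and UPK1B, with 74, 0 and 0 reads (adjusted p of 6e-04 and 0.00872, edgeR's quasi-likelihood test), where 0.582% of all genes tested were called lower. KRT13 and KRT17, at an adjusted p of 0.0540 and 0.0784 in this fit, were also called lower with median-of-ratios scaling, with no filter and by DESeq2, so that 4 markers were called in each of these. Of all genes tested in these fits, 1.5, 2.02 and 1.67% were called in either direction. The authors' parental and resistant group means were 11544 and 2047 normalized counts for KRT5, and 70.1 and 20.4 for UPK1B. The log2 ratio of these means was -2.49 for KRT5, against -4.52 in the edgeR fit, and -1.73 for UPK1B. With 0 reads in both labelled resistant libraries, the resistant mean of UPK1B came from outside them, so its absence holds for these libraries only. The summed level of this list was 10451, 7624 and 7829 CPM. Immune markers summed to between 0.781 and 1.38 CPM and endothelial markers to between 0.426 and 2.02 CPM, with LUM, of fibroblasts, at 0 reads in every library. Fibroblast markers summed to 172, 155 and 146 CPM, nearly all of it COL1A1 and COL1A2. The part of the marker differences in the results below was not tested. In bulk RNA, fewer cells with a transcript and less of it per cell cannot be told apart.

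TBX2 had the largest log2 fold change of the 9 members. It was called by edgeR's quasi-likelihood test at an adjusted p under 0.05, so that 1 of 9 members was called, against 0.876% of all 15643 genes tested (0.294% higher and 0.582% lower in the resistant libraries). DESeq2 gave an adjusted p for 8 of the members, all but TBX3, and called 1 of them, TBX2, against 1.67% of 14733 genes. Without adjustment, 3 members had a p under 0.05 (TBX2, SOX15 and SOX9), against 9.70% of all genes. Both resistant libraries lay above the parental library for 5 of the 8 members other than TBX3, a pattern of 35.2% of all genes, and both lay below it for SOX2 and SOX4, a pattern of 34.5% of all genes. The order of TBX3 was not read, since its counts in the parental library and resistant library 1 were under the floor of 3. Only for SOX12, among these 8, did the parental value lie between the resistant ones. The p-values rest on the spread between the 2 resistant libraries, moderated over genes, and the lone parental library is assumed to vary alike.

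**Figure D1:**
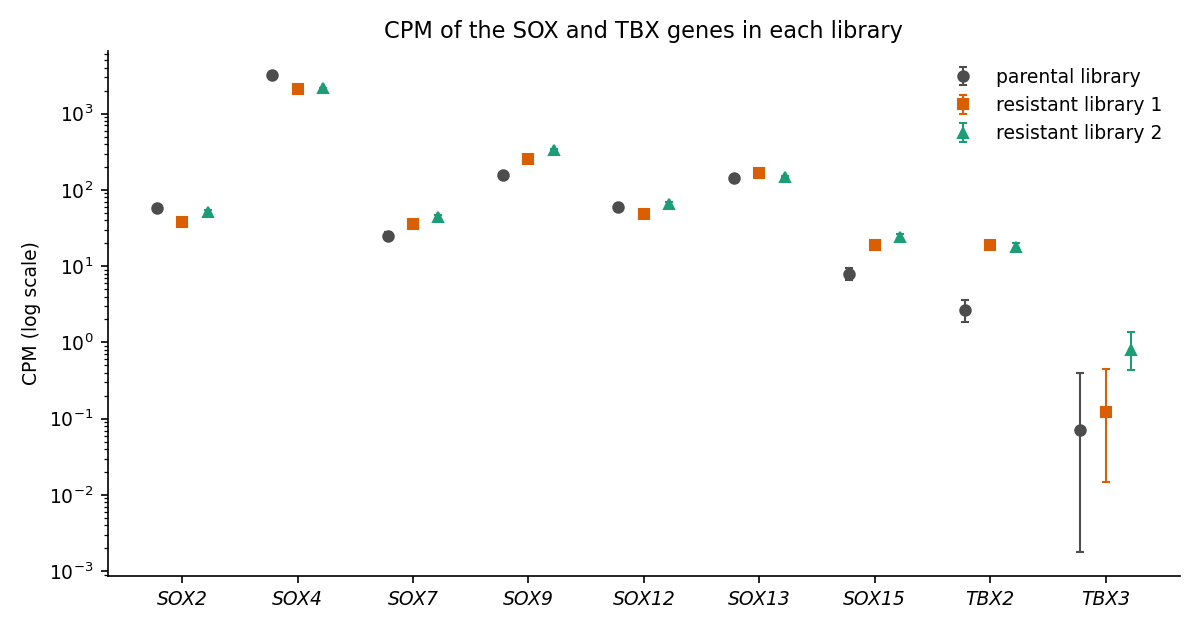
The vertical axis is the level in CPM on a log scale, and each of the 9 genes has 1 point per library, with exact Poisson 95% intervals of the read count (counting error only). SOX4 sits near the top at 3221, 2092 and 2140 CPM, TBX3 at the bottom, and the widest step from the parental to both resistant libraries is that of TBX2, from 2.63 to 18.9 and 18.0 CPM.

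TBX2 (ENSG00000121068, chromosome 17, 59477257 to 59486827, plus strand, in the hg19 coordinates of the table) had 37 reads in the parental library, 309 in resistant library 1 and 313 in resistant library 2. These were 2.63, 18.9 and 18.0 CPM, with a resistant mean of 18.5 ± 0.613 CPM (SD, n = 2). The groups did not overlap, and the resistant libraries differed by less than their counting intervals, 16.9 to 21.1 and 16.1 to 20.2 CPM. The log2 fold change was 2.81 (SE 0.482, 95% interval 1.73 to 3.89), 7.01-fold, with an adjusted p of 0.0294 by edgeR's quasi-likelihood test with Benjamini-Hochberg adjustment. A log2 fold change of this size or more was found in 1.25% of the genes tested. The authors' group means gave a smaller log2 ratio, 2.26, and stood at 57.3 and 279 normalized counts.

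TBX3 is the closest paralogue of TBX2 and shares much of its role as a repressor. It was read 1, 2 and 14 times in the parental and the resistant libraries, that is at 0.071, 0.122 and 0.807 CPM. The parental library and resistant library 1 were under the floor, so that the resistant libraries were further from each other than resistant library 1 was from the parental library. The ratio of resistant library 1 to the parental library was 1.72, with a counting interval of 0.0897 to 102, and that of resistant library 2 was 11.4, with an interval of 1.73 to 480. TBX3 passed the filter on low counts through resistant library 2 alone, and edgeR's quasi-likelihood test gave an adjusted p of 0.743. Its group means were 2.33 and 4.89 normalized counts. The second interval excludes 1 and the first does not, but they overlap widely and share the same parental count of 1 read. Whether the resistant libraries differed in their ratio to the parental one was not tested.

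Within each library, reads on the pair fell almost wholly on TBX2. Its share was 97.4% in the parental library (exact 95% interval 86.2 to 99.9%), 99.4% in resistant library 1 (97.7 to 99.9%) and 95.7% in resistant library 2 (92.9 to 97.6%). The interval of the parental share covers both resistant shares. TBX2 was thus the main member of the pair in both lines. No shift from the parental share was detectable at a parental count of 38 reads on the pair. The intervals of the resistant libraries did not meet each other, with 2 and 14 reads on TBX3, and they cover counting error only.

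SOX15, the lone member of SOX group G, showed the next clearest step. SOX15 (ENSG00000129194, chromosome 17, 7491496 to 7493488, minus strand, hg19) had 112, 314 and 422 reads, at 7.96, 19.2 and 24.3 CPM. Both resistant libraries were above the parental one, and their mean was 21.8 ± 3.61 CPM (SD, n = 2). The log2 fold change was 1.45 (SE 0.428, 95% interval 0.50 to 2.41), with an adjusted p of 0.232 by edgeR's quasi-likelihood test with Benjamini-Hochberg adjustment. It did not pass the test in any of the other fits, with adjusted p between 0.109 and 0.204. A log2 fold change at least as large was found in 4.88% of all genes tested. The authors' group means, 88.7 and 245 normalized counts, gave nearly the same log2 ratio, 1.46.

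SOX9, of SOX group E, drives cartilage and many epithelial progenitor programs. SOX9 (ENSG00000125398, chromosome 17, 70117161 to 70122561, plus strand, hg19) was read at 157 CPM in the parental library, 257 in resistant library 1 and 336 in resistant library 2, from 2210, 4196 and 5836 reads. The groups did not overlap, but the resistant libraries also stood apart from each other, with a ratio of 1.31. Its log2 fold change was 0.92 (SE 0.388, 95% interval 0.05 to 1.78), with an adjusted p of 0.476 by edgeR's quasi-likelihood test. In the group means the log2 ratio was 0.66, from 2632 to 4146 normalized counts.

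SOX7, of SOX group F, belongs to the factors of blood vessel and early endoderm development. SOX7 (ENSG00000171056, chromosome 8, 10581278 to 10697357, minus strand, hg19) had 354, 578 and 755 reads, at 25.1, 35.4 and 43.5 CPM. Parental and resistant values did not overlap. The log2 fold change of 0.65 (SE 0.373) had an adjusted p of 0.662 by edgeR's quasi-likelihood test, and an interval of -0.18 to 1.48. The authors' group means were 385 and 497 normalized counts, a log2 ratio of 0.37.

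SOX4 and SOX12 form SOX group C, which is known from progenitor survival and neuronal differentiation. SOX4 (ENSG00000124766, chromosome 6, 21593972 to 21598847, plus strand, hg19) had by far the most reads of the 9 genes, 45347, 34177 and 37122, at 3221, 2092 and 2140 CPM. Both resistant libraries were below the parental one and within 1.02-fold of each other. Its log2 fold change was -0.61 (SE 0.330, 95% interval -1.34 to 0.13), with an adjusted p of 0.628 by edgeR's quasi-likelihood test. The group means were closer together, at 36957 and 35472 normalized counts, a log2 ratio of -0.06. SOX12 (ENSG00000177732, chromosome 20, 306207 to 310865, plus strand, hg19) was read at 60.1, 48.2 and 65.4 CPM, and here the parental value lay between the resistant ones. The log2 fold change of SOX12 was -0.08 (95% interval -0.89 to 0.73), and its group means were 785 and 805 normalized counts.

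SOX2, of group B1, is a core factor of the pluripotent state. SOX2 (ENSG00000181449, chromosome 3, 181429714 to 181432221, plus strand, hg19) was read at 58.7 CPM in the parental library, 38.4 in resistant library 1 and 50.9 in resistant library 2, from 826, 627 and 883 reads. The resistant values lay below the parental one, yet the resistant libraries differed from each other by a ratio of 1.33. The log2 fold change was -0.39 (SE 0.358, 95% interval -1.19 to 0.41), with an adjusted p of 0.843 by edgeR's quasi-likelihood test. Over the group means the sign was the opposite, with 688 normalized counts in the parental and 789 in the resistant group, a log2 ratio of 0.20. SOX13, of group D, which is known from T cell and neural development, was read at 143, 168 and 149 CPM (ENSG00000143842, chromosome 1, 204042243 to 204096863, plus strand, hg19). Its parental counting interval, 137 to 149 CPM, overlapped that of resistant library 2, 143 to 154 CPM. The log2 fold change of SOX13 was 0.15 (95% interval -0.65 to 0.95), and the group means were 2143 and 2216 normalized counts.

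**Figure D2:**
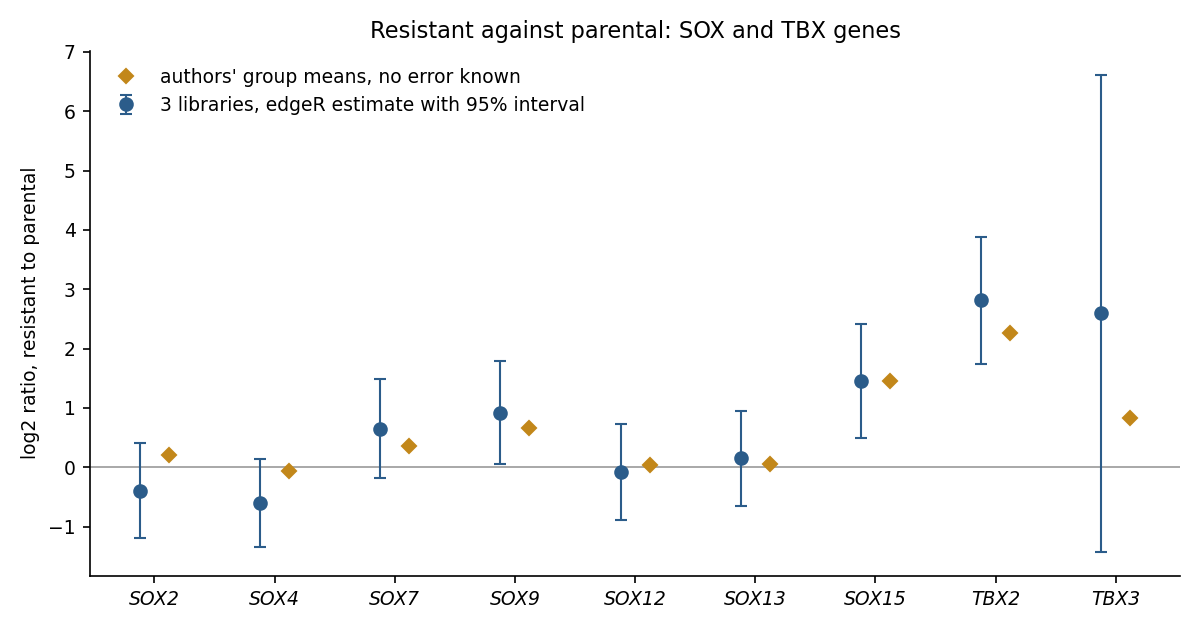
The vertical axis is the log2 ratio of resistant to parental, with circles for the edgeR estimate from the 3 libraries and its 95% interval, and diamonds for the ratio of the deposited group means (pseudocount 1). The intervals of SOX9, SOX15 and TBX2 lie above 0, that of TBX3 runs from -1.43 to 6.62, and circle and diamond lie on opposite sides of 0 for SOX2 and SOX12.

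By the libraries, 6 members had a positive and 3 a negative log2 fold change, and by the authors' group means 8 had a positive and 1, SOX4, a negative log2 ratio. The sign differed for 2 members, SOX2 and SOX12. The size of the difference between these sources was largest for TBX3, at 2.60 and 0.82, among the 9. Since the group means include the 3 libraries, the sources are not independent.

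Levels of different genes were compared per length, as the deposited FPKM, reads scaled by gene length and library size. In the parental library the order from high to low was SOX4 at 642, SOX13 and SOX9 both at 38.8, SOX2 at 22.8, SOX12 at 12.6, SOX7 at 7.60, SOX15 at 5.54, TBX2 at 0.490 and TBX3 at 0.0146 FPKM. SOX4 ranked 47th of all genes in that library, and 76th and 72nd in the resistant libraries. In the resistant libraries SOX9 came second, at 76.1 ± 12.4 FPKM (SD, n = 2), ahead of SOX13 at 44.9 ± 5.11 FPKM. SOX15 stood at 15.8 ± 2.20 FPKM, next to SOX2 at 18.0 ± 3.10 FPKM, and these neighbours overlapped over the 2 libraries. SOX12 and SOX7, at 12.40 ± 2.33 and 12.40 ± 1.48 FPKM, overlapped likewise. TBX2, at 3.59 ± 0.215 FPKM, remained the second lowest member in the resistant libraries, under every SOX gene of the list. The table gives TBX2 a length of 5218 bases, that of a transcript with a retained intron, whereas its coding transcript in GENCODE 29 has 3339 bases. With that length TBX2 stood at 0.766, 5.84 and 5.37 FPKM, and its place in the order was the same.

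The share of one gene in the reads of a pair does not depend on how libraries are scaled to each other. SOX15 took 11.9% of the reads on SOX15 and SOX2 in the parental library (exact 95% interval 9.93 to 14.2%), 33.4% in resistant library 1 (30.4 to 36.5%) and 32.3% in resistant library 2 (29.8 to 35.0%). Its share of the pair with SOX12 was 11.7, 28.5 and 27.1%, and with SOX13 it was 5.27, 10.3 and 14.1%. Beside SOX4 it made up 0.246, 0.910 and 1.12% of the reads. In the pair with SOX9 the share was 4.82% (3.99 to 5.78%), 6.96% (6.24 to 7.74%) and 6.74% (6.13 to 7.39%), and in that with SOX7 it was 24.0, 35.2 and 35.9%. In each of the 6 pairs both resistant shares were above the parental share, with counting intervals that did not meet. All 6 pairs use the same SOX15 counts, and SOX15 had the largest log2 fold change of the SOX members. The pairs thus restate that difference and are not separate results. These intervals cover counting error only and say nothing of the spread between parental clones.

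**Figure D3:**
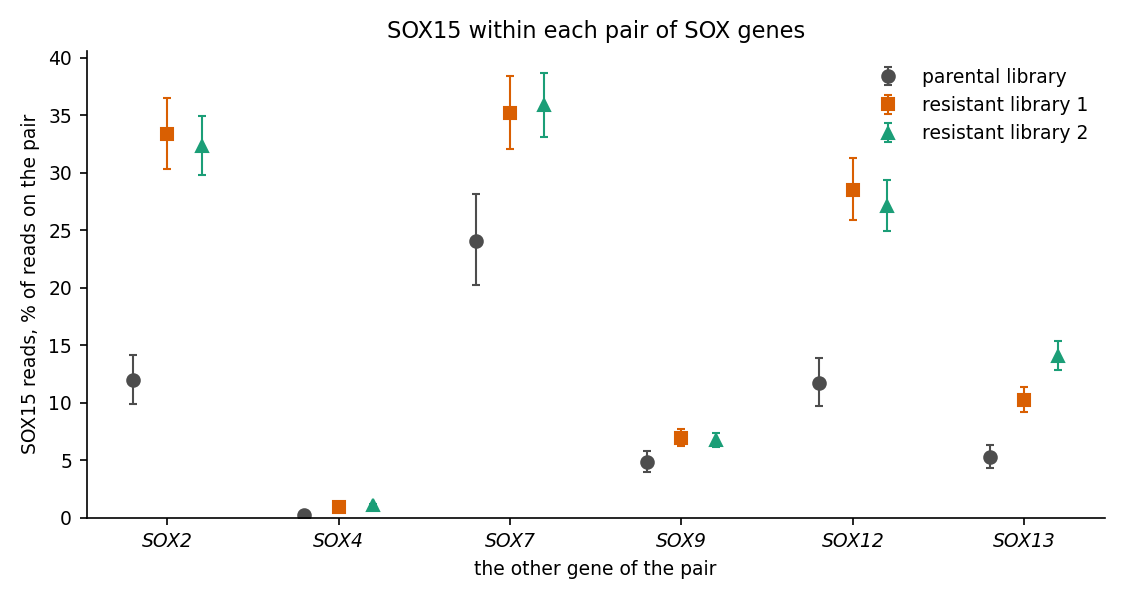
The vertical axis is the share of SOX15, in percent, in the reads on SOX15 and 1 other SOX gene, which is named on the horizontal axis, with exact 95% binomial intervals per library. In all 6 pairs, which use the same SOX15 counts, the parental share is below both resistant shares. The shares run from 24.0 against 35.2 and 35.9% with SOX7 down to 0.246 against 0.910 and 1.12% with SOX4.

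Among the reads on all 7 SOX members together, SOX4 accounted for 87.7% in the parental library and 78.7 and 76.2% in the resistant libraries. The share of SOX9 was 4.27, 9.66 and 11.98%. SOX15 remained a small part throughout, with 0.217, 0.723 and 0.866%. The mix of SOX transcripts was thus dominated by SOX4 in both lines, and the resistant libraries resembled each other more than the parental one in these 3 shares. The shares of SOX7 and SOX13 followed this pattern too. Those of SOX2 (1.60, 1.44 and 1.81%) and SOX12 (1.64, 1.81 and 2.33%) did not.

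Other genes overlap the members, and the library protocol describes both a stranded and an unstranded kit without saying which was used, so reads of overlapping genes may not be separable. TBX2-AS1 (listed as RP11-332H18.4, ENSG00000267280), an antisense RNA on the minus strand, covers the whole of TBX2. It had 7, 52 and 53 reads, at 0.497, 3.18 and 3.06 CPM, a log2 fold change of 2.63 (SE 0.755) with an adjusted p of 0.216 by edgeR's quasi-likelihood test. Its values thus stood in the same order as those of TBX2, with both resistant libraries above the parental one. With no filter on low counts its adjusted p was 0.0375 by the same test, and over the other alternatives it was between 0.159 and 0.426. The authors' group means of TBX2-AS1 were 9.40 and 40.8 normalized counts. Another antisense gene, RP11-332H18.5, overlaps 3.64% of TBX2 and had 0, 0 and 2 reads. SOX15 lies wholly inside MPDU1, a gene of protein glycosylation on the opposite strand, which had 462, 686 and 532 reads and a log2 fold change of 0.15. The parental value of MPDU1 lay between the resistant ones, unlike that of SOX15. SOX7 shares 64.5% of its span with PINX1, on the same strand, a gene known as a telomerase inhibitor, and PINX1 had 87, 179 and 169 reads and a log2 fold change of 0.74 (adjusted p 0.693 by edgeR's quasi-likelihood test). CTD-2135J3.3, on the other strand of SOX7, had 20, 20 and 40 reads. SOX2 lies inside the span of SOX2-OT, on the same strand, which had 18, 12 and 8 reads. SOX9-AS1 (listed as AC005152.2) had 49, 74 and 40 reads over SOX9, and RP5-1103G7.4 had 15, 25 and 15 over SOX12.

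The genes around each member were read in the same fit, taking 10 tested genes on either side along the chromosome. No neighbour of any member was called by edgeR's quasi-likelihood test. Around TBX2 the median log2 fold change of 20 neighbours was 0.28, with 14 of them positive, and TBX2 stood 2.53 above that median. The nearest value was that of TBX2-AS1, while TBX4, the T-box gene beside it, had 11, 18 and 38 reads and a log2 fold change of 1.07 (adjusted p 0.789, edgeR's quasi-likelihood test). Around SOX15 the median was 0.38, with 16 of 20 positive, and SOX15 stood 1.08 above it. SOX9, on the same chromosome, had neighbours with a median of -0.01 and stood 0.93 above them.

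SOX7 differed from these in its surroundings. All 20 neighbours of SOX7, over 8175258 to 11422113 of chromosome 8 (hg19), had a positive log2 fold change, with a median of 0.66, and SOX7 was 0.01 below that median. By the ratios of the single libraries the medians were 0.59 and 0.82, and by the authors' group means the median was 0.44, with 18 of 20 positive. SOX7 thus lay close to the middle of its stretch of chromosome, in which no single gene was called. For the remaining members the medians were -0.11 around SOX2, -0.10 around SOX4, -0.14 around SOX12 (13 neighbours), 0.03 around SOX13 and -0.23 around TBX3. The median around SOX2 changed sign with the library left out, from -0.34 without resistant library 1 to 0.07 without resistant library 2.

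**Figure D4:**
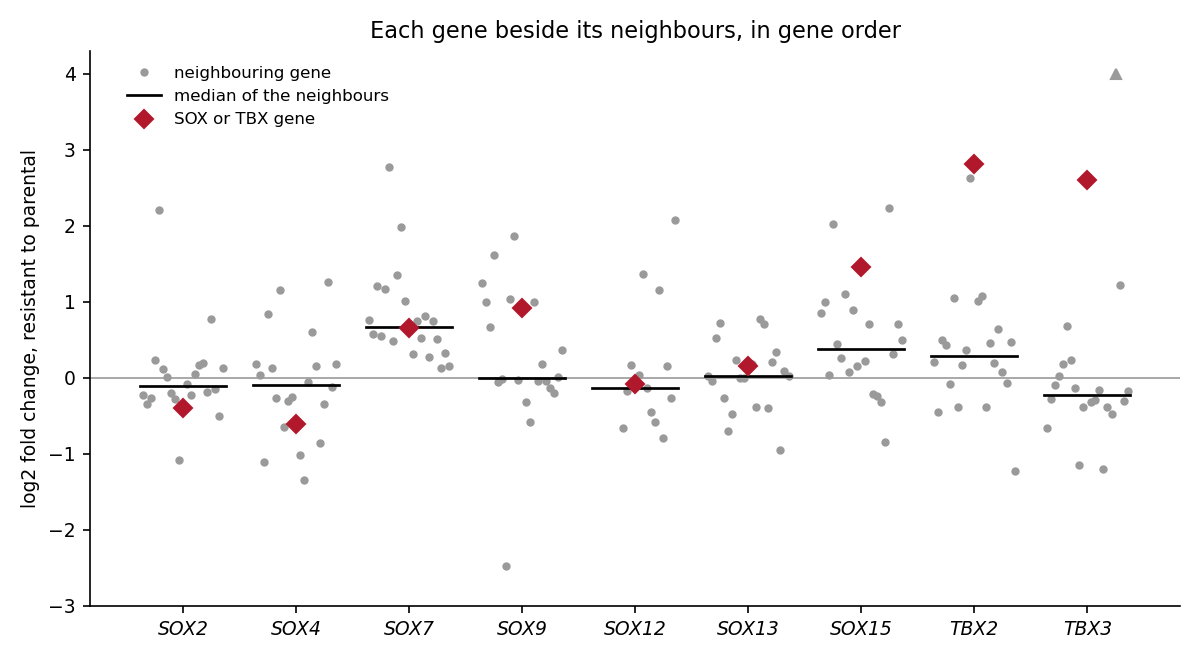
The vertical axis is the log2 fold change of resistant against parental in the edgeR fit, with grey points for up to 20 neighbouring genes, a black bar for their median and a red diamond for the named gene. A grey triangle at the top stands for 1 neighbour of TBX3, at 7.60. SOX7 lies on its neighbours' median of 0.66, whereas TBX2, at 2.81, is above all of its neighbours.

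Of other SOX genes, 8 were in the table, and 2 had at least 10 reads in a library and were tested. SOX5, of group D, was read at 2.27, 1.71 and 2.13 CPM, and SOX21, a repressor of group B2, at 15.4, 0.122 and 16.9 CPM. Neither was called. SOX1, SOX11 and SOX17 were at or under the floor in all 3 libraries, and SOX6, SOX10 and SOX30 had at most 8 reads in any library. Of further T-box genes, 12 were in the table, and 7 of them were tested with none called. MGA, which joins a T-box to a MAX-binding domain, was read at 76.8, 69.5 and 51.3 CPM, with both resistant libraries below the parental one. TBX6 stood at 4.62, 3.61 and 4.67 CPM and TBX19 at 3.62, 3.06 and 3.75 CPM, and in both the parental value lay between the resistant ones. TBX1 had 11, 11 and 22 reads, TBX20 had 9, 15 and 7, and EOMES had 40, 16 and 109. The rest, TBX5, TBX10, TBX15, TBX21 and TBR1, had at most 9 reads in any library. LINC00511, a long noncoding gene near SOX9, stood at 46.3, 33.8 and 40.1 CPM, and TBX3-AS1 (listed as RP4-601P9.2) had 0 reads. SOX3, SOX8, SOX14, SOX18, TBX18 and TBX22 were not analysed here.

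**Figure D5:**
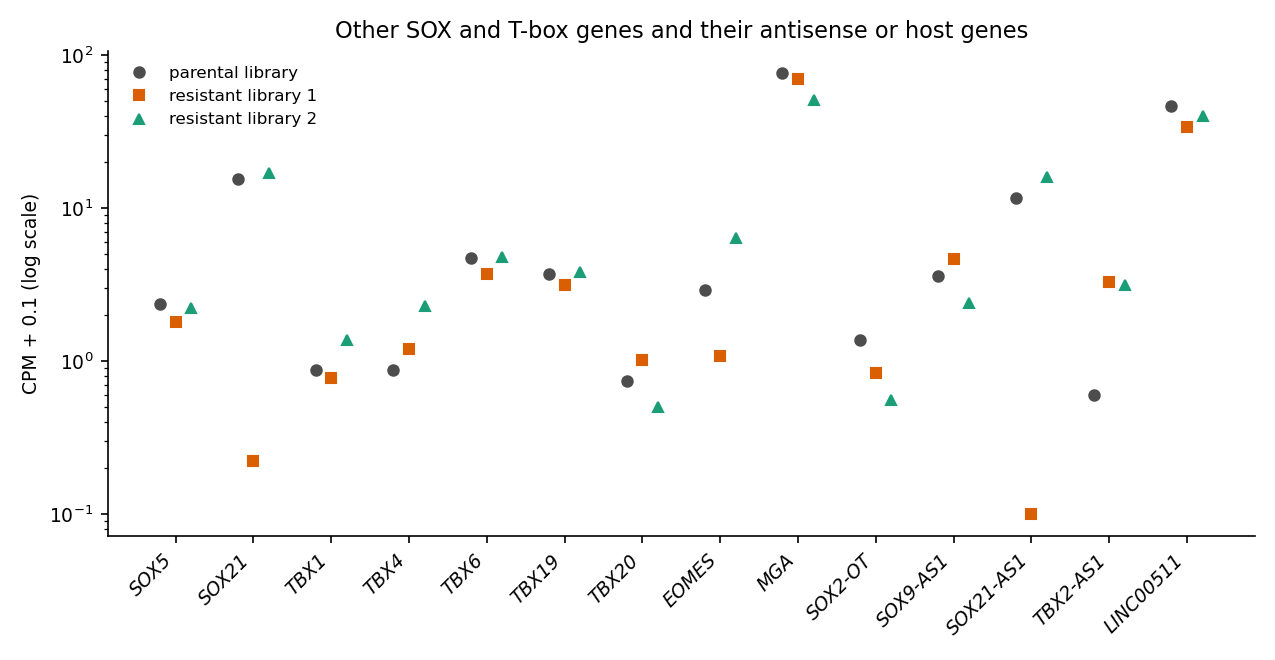
The vertical axis is CPM plus 0.1 on a log scale for other SOX and T-box genes and for antisense or host genes with at least 10 reads in a library, with 1 point per library. MGA and LINC00511 are the highest, TBX2-AS1 has both resistant points above the parental one, and SOX21 and SOX21-AS1 have resistant library 1 far below the other libraries.

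Genes known to work with these factors were counted from fixed lists, beside a median log2 fold change of 0.03 over all genes tested, of which 8181 were positive and 7462 negative. Of 6 known targets of TBX2 and TBX3, none was called, 4 were positive and 2 negative, and the median was 0.24. By the authors' group means the median of these targets had the opposite sign, at -0.11. CDKN1A, the cell cycle inhibitor p21, was read at 111, 164 and 282 CPM (log2 fold change 1.00, adjusted p 0.491, edgeR's quasi-likelihood test). CDKN2A, which encodes p16 and ARF, was read at 864, 438 and 527 CPM, a log2 fold change of -0.84. NDRG1, a growth suppressor, stood at 28.9, 32.7 and 73.6 CPM, and CDKN2B, which encodes p15, at 92.5, 55.7 and 72.9 CPM. The inhibitors in this list thus had log2 fold changes of both signs, and none passed the test.

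Partners of SOX2 in pluripotency were present in part. Of 7 in the table, 4 were tested and none was called, with 3 positive and 1 negative. Their median log2 fold change was 0.35, and by the authors' group means it was -0.22, a change of sign. KLF4 was read at 37.4, 72.2 and 99.8 CPM (log2 fold change 1.20, adjusted p 0.301, edgeR's quasi-likelihood test), MYC at 323, 349 and 621 CPM, and SALL4 at 33.5, 23.3 and 18.45 CPM. POU5F1, which encodes OCT4, the usual partner of SOX2, had 4, 4 and 3 reads, and LIN28B had 12, 12 and 19. POU5F1 was thus within 1 read of the floor in every library, whereas SOX2 had at least 627 reads.

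Cartilage targets of SOX9 were mostly absent, with 6 of 8 at or under the floor in all 3 libraries, among them ACAN with 0 reads. COL9A2 was read at 12.6, 17.5 and 24.3 CPM (log2 fold change 0.72, adjusted p 0.663, edgeR's quasi-likelihood test), and COL11A2 at 2.27, 1.41 and 1.50 CPM. Of 5 targets of SOX4 and its group, none was called, 1 was positive and 4 negative, and the median was -0.53. TUBB3, a neuronal tubulin, stood at 7.60, 2.69 and 1.67 CPM (log2 fold change -1.80, adjusted p 0.251, edgeR's quasi-likelihood test). TEAD2, of the Hippo pathway, was read at 59.5, 18.5 and 43.9 CPM, DBN1 at 730, 508 and 503 CPM, and EZH2, the enzyme of Polycomb repression, at 140, 116 and 106 CPM. Both resistant libraries were below the parental one in these 4 genes, which were named for their size of change, a pattern of 34.5% of all genes tested. The fifth, SEMA3C, a guidance cue, was read at 203, 186 and 252 CPM.

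The genes closest in pattern to TBX2 and SOX15 were taken by the root-mean-square distance of log2(CPM + 0.5), centred over the 3 libraries, and the added 0.5 CPM bears on the distances and the order of genes as low as these. For TBX2 these were CNRIP1 at 0.355, 4.47 and 4.90 CPM, AADAC at 1.21, 9.43 and 8.19 CPM and BAIAP3 at 0.781, 6.73 and 5.71 CPM, with distances of 0.0761, 0.0904 and 0.119. For SOX15 they were TMEM175 at 9.38, 22.5 and 28.5 CPM, RP11-564D11.3 at 1.14, 3.37 and 4.44 CPM and PLAU, which encodes urokinase, at 166, 374 and 471 CPM, with distances of 0.00100, 0.0162 and 0.0225. With 3 libraries many genes share such a pattern, and the likeness is a description over these libraries only.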

How the data were processed

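RNA-Seq of 3 labelled libraries of 5637 cells was used. Raw read counts per gene were deposited by the authors without normalization, with FPKM computed by the authors from count, gene length and total reads (0 values departed from this), gene length in bases as deposited (other), and a signal per group, made by the authors by averaging normalized counts over the clones. The submitters' processing notes name CASAVA 1.8 and hg19, and the aligner, counter and annotation are not given in the sources used here. The table also holds results of a DESeq2 comparison by the authors (a log2 fold change per gene with its raw and adjusted p), which were not used. A further 6 per-sample columns match no sample label and were not used.

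Counts were filtered by filterByExpr, scaled by TMM and tested two-sided with edgeR 4.0.16 (R 4.3.3; glmQLFit, glmQLFTest), with group as the only term and Benjamini-Hochberg adjustment over 15643 genes. The fit has 1 residual degree of freedom, and the common biological coefficient of variation was 0.281. On simulated counts it called 100 of 100 genes at a log2 fold change of 2 and 100 of 100 at 3. In a simulation with no changed gene it called 0 of 15408. The simulated spread was set below that of these libraries, and changed genes were drawn only from those with more reads. These rates therefore do not carry over to the libraries, least of all to genes with few reads. Intervals of counts are 95% exact Poisson and those of shares Clopper-Pearson, with a floor of 3 reads, and both cover counting error only. The SE of a log2 fold change is the one implied by the F statistic of the quasi-likelihood test. Its 95% interval uses the t distribution with the total degrees of freedom of that test, so that it includes the moderated spread between libraries. Group means entered as log2 ratios after a pseudocount of 1. Sequences and transcript lengths are from GENCODE 29 (GRCh38) and were matched by Ensembl gene identifier. No coordinate was converted between builds. Tables were made with pandas 2.3.3, intervals with scipy 1.17.1 and figures with matplotlib 3.10.9 (numpy 2.4.6, Python 3.11.15).

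The members and lists were chosen with earlier results of these data known. Named genes are the members, related genes with at least 10 reads in a library, overlapping genes, list genes that passed the test or up to 4 with the largest change per list, and the 3 nearest genes in pattern to TBX2 and SOX15. Genes named beyond this rule were chosen after their values were seen, and 15 listed symbols were not analysed here. The alternatives were DESeq2 1.42.0, median-of-ratios scaling, no filter, each resistant library left out, group means in place of the libraries, another pseudocount, rescaled group means and lengths. Added after seeing the data were 5 neighbours on either side, group means and left-out libraries for neighbours, and coding transcript length.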

Additional observations from a re-analysis of the deposited data

How the results depend on the processing

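The count of genes called was 137 (46 higher, 91 lower), 235 with median-of-ratios scaling, 534 with no filter (273 higher, 261 lower) and 246 with DESeq2 (121 higher, 125 lower), and TBX2 was called in each, at adjusted p from 8.6e-05 to 0.0294. By the authors' group means in place of the libraries, log2 values were 0.20 for SOX2, a change of sign in a value that was not called, -0.059 for SOX4, 0.37 for SOX7, 2.26 for TBX2 (2.19 with a pseudocount of 5) and 0.82 for TBX3. Without 1 resistant library the log2 fold change, then with no test, was 2.72 to 2.79 for TBX2 and 0.33 to 2.24 for TBX3, with 0.33 found without resistant library 2. The medians of neighbours without 1 resistant library were -0.34 to 0.07 (SOX2, a change of sign), -0.19 to -0.0091 (SOX4), 0.082 to 0.13 (SOX9), 0.030 to 0.068 (SOX13), 0.38 to 0.45 (SOX15) and 0.094 to 0.21 (TBX2). Chosen after seeing the data, 5 neighbours on either side gave -0.26 (SOX4), -0.0046 (SOX13), 0.18 (SOX15), 0.41 (TBX2) and -0.31 (TBX3). Group means of the neighbours gave 0.44 (SOX7), 0.13 (SOX9), 0.087 (SOX13), 0.31 (SOX15) and -0.093 (TBX3). The length of the coding transcript gave TBX2 0.766, 5.84 and 5.37 FPKM in place of 0.490, 3.74 and 3.44. For the shifts by group means and by left-out libraries the cause was not tested. Rescaling of the group means left all 9 ratios within the replicate spread. No paired analysis was possible, because the clones were derived independently and a shared replicate number does not pair them. The parental line is represented by 1 library, with 37 reads on TBX2 and 1 on TBX3.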

Other observations

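The resistant libraries differed most from each other in SOX21, a repressor of group B2, and its antisense neighbour, among the SOX and T-box genes and their antisense or host genes with at least 10 reads. SOX21 had 217 reads in the parental library, 2 in resistant library 1 and 293 in resistant library 2, at 15.4, 0.122 and 16.9 CPM. SOX21-AS1 had 162, 0 and 277 reads, that is 11.5, 0 and 16.0 CPM. Both genes were thus at or under the floor in resistant library 1 and at levels close to the parental one in resistant library 2. Their authors' group means were 154 and 105 normalized counts for SOX21 and 112 and 90.7 for SOX21-AS1. EOMES, a T-box factor of T cells and early development, followed the same order of libraries, at 2.84, 0.979 and 6.28 CPM. None of the 3 was called by edgeR's quasi-likelihood test, with adjusted p of 0.932, 0.970 and 0.969. These genes were singled out after their values were seen.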
